A study of Mus musculus with 18 samples.

Results

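Kupffer cells are the resident macrophages of the liver and line its sinusoids, where they clear particles, dying cells and old red blood cells from the portal blood. Their adult identity is held by transcription factors such as LXR alpha, SPIC and ID3 and by signals from neighbouring endothelial, stellate and liver parenchymal cells. Cells that settled before birth carry Timd4, and cells that replace them from blood monocytes take up Clec4f sooner than Timd4. The 10 genes described here are Cd163, Clec4f, Timd4, Marco, Vsig4, Cd5l, Adgre1, C1qa, Cd68 and Csf1r, chosen by name as Kupffer cell identity genes. All 10 were found among the 18946 genes of the deposited table, and 10 of 10 passed the filter on low values. Clec4f, Timd4, Vsig4 and Cd5l are close to Kupffer cell specific in mouse liver, whereas Adgre1, C1qa, Cd68 and Csf1r are shared with other macrophages.

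The livers came from 10 Old (19.76 months per the labels) and 8 Young (6.18 months) male C57BL/6J mice without a genetic modification named in the labels, 1 library per mouse. The design text and the growth protocol give 20 and 21 months for the Old mice. Every mouse was catheterized, fasted for 14 h and given an insulin clamp of 150 min, in which insulin is infused at a fixed blood glucose, so no liver without insulin was compared. RNA was extracted with AllPrep (5 Old, 3 Young) or RNeasy (5 Old, 5 Young), and the age comparison of each of the 10 genes is also given within each kit.

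Values are scaled TPM, that is reads per gene length as deposited (each library sums to 1000000), brought to a common scale across libraries with factors of 0.841 to 1.16. An Old library held 90081467 to 127000035 reads and a Young library 85790735 to 127487820, as recovered from the TPM values, and the 10 genes held 161 to 26750 reads in a library. Old replicate 14 (RNeasy) stood apart: its median correlation with the other Old libraries over all genes tested was 0.941, against 0.970 to 0.984 for the other Old libraries and 0.981 to 0.989 within Young. Calls among the 10 genes, and their log2 folds within RNeasy, are given with and without it. The whole liver was sequenced, so fewer cells of a type and less RNA per cell cannot be told apart.

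Of the 10 genes, 7 have an entry among the RefSeq promoter sequences (GRCm38.p6), and 3 of these are printed because they span the patterns seen below: Cd163, which was called lower in Old livers with both kits and within AllPrep, Clec4f, which hardly differed with age, and Vsig4, which had the largest kit difference in Young livers. Each is the 250 bases before the gene's start, 5′ to 3′ on the gene's strand, at chr6:124304401-124304650 (plus strand) for Cd163, chr6:83656117-83656366 (minus strand) for Clec4f and chrX:96293439-96293688 (minus strand) for Vsig4. Capitals mark GAGGAA, the core bound by PU.1, the master transcription factor of macrophages.
Cd163: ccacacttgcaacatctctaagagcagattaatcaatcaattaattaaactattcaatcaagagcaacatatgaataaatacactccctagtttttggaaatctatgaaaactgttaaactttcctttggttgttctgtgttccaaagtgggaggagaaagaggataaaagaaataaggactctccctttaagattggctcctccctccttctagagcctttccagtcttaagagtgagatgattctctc
Clec4f: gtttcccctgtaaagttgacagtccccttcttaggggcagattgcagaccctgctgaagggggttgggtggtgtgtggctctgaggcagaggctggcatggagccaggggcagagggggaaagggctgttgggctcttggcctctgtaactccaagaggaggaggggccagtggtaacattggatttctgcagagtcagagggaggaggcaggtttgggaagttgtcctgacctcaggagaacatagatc
Vsig4: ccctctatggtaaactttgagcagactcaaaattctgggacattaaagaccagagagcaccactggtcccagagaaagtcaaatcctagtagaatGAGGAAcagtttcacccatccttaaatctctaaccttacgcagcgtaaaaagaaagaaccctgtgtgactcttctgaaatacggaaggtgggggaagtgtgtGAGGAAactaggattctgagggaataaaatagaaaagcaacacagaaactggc
Searched on both strands, GAGGAA stood in 23.3% of 32851 mouse promoter windows of this length. It occurred at -155 and -53 from the start of Vsig4, at -146 of Marco, at -225 of Cd68 and, on the opposite strand, at -66 of Cd5l, and it was not found in these windows of Cd163, Clec4f and Timd4. The MAF half-site TGCTGAC (3.81% of windows) was found in Timd4, the AP-1 site TGACTCA (4.46%) at 2 places in Cd68, the antioxidant element TGACNNNGC (10.2%) in Clec4f, and the direct repeat with a spacer of 4 bases that LXR binds (LXR DR4, 0.0152%) in none of the 7. These matches are letters in a window and say nothing of binding.

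Cd163, the haemoglobin-haptoglobin scavenger receptor, was the gene of the 10 called lower in Old livers with both kits. Within kits it was called in AllPrep livers only. In AllPrep libraries it had 3.32, 1.23, 2.03, 2.19 and 3.13 scaled TPM in Old replicates 5, 7, 8, 9 and 18, against 16.9, 22.3 and 16.1 in Young replicates 1, 10 and 13. Every Old AllPrep liver lay below every Young AllPrep liver, with a wide gap between them. In RNeasy libraries it had 13.8, 0.596, 7.69, 11.9 and 6.79 scaled TPM in Old replicates 6, 14, 15, 16 and 17, against 8.91, 15.6, 13.4, 11.6 and 12.4 in Young replicates 2, 3, 4, 11 and 12. Here the ages overlapped, and Old replicate 14 had the lowest value of the 18 livers. Against the Young median of their own kit, 5 of 5 Old AllPrep livers and 4 of 5 Old RNeasy livers were lower. Over both kits 10 of 10 Old livers were below the median of all Young livers.

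Cd163 averaged 5.27 ± 4.61 scaled TPM in Old (SD, n = 10) and 14.7 ± 4.07 in Young livers (SD, n = 8). With the kit as a term its log2 fold was -1.73 ± 0.42 (SE; 95% interval -2.61 to -0.86; limma adjusted p = 0.0265), a level in Old 0.301 times that in Young. Within AllPrep the log2 fold was -2.75 ± 0.25 (SE, limma adjusted p = 0.00127; n = 5 Old and 3 Young), and it was called with each of the 8 libraries left out in turn. Within RNeasy it was -0.98 ± 0.59 (SE, limma adjusted p = 0.649; n = 5 each), with a 95% interval of -2.28 to 0.33, and -0.34 without Old replicate 14 (limma adjusted p = 0.584), when 0 of the 10 genes were called (0.252% of genes tested were higher and 0.209% lower). The age effect in AllPrep minus that in RNeasy was -1.79 ± 0.75 (SE) and did not pass (limma adjusted p = 0.993; 0.0072% of genes tested were lower and 0% higher). It was -2.43 ± 0.35 and passed when Old replicate 14 was left out (limma adjusted p = 0.0133; 0.0217% of genes tested were lower and 0% higher). With both kits the call was lost without Young replicate 1 (limma adjusted p = 0.0605), 10 (0.0669) or 13 (0.0552), the 3 Young AllPrep livers, and with body weight as a term (-0.97 ± 0.72, SE, limma adjusted p = 0.576), a fit that left 3 genes higher and 0 lower among all tested. Body weight did not overlap between the ages, at 26.6 to 34.8 g in Young and 35.1 to 55.0 g in Old mice. The fit with body weight, here and below, can therefore hardly separate age from weight.

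**Figure D1:**
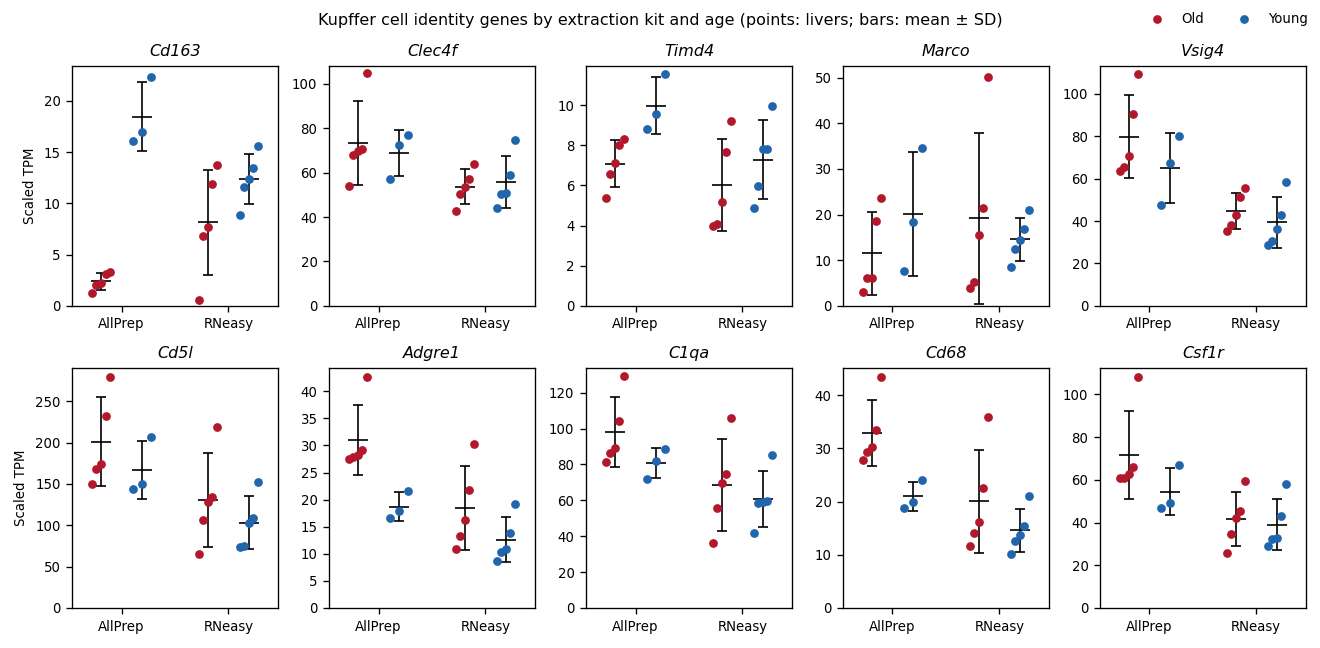
Scaled TPM of each of the 10 genes (vertical axis from 0) in AllPrep and RNeasy libraries, with Old livers in red to the left of Young livers in blue. Points are livers, and bars are the mean and SD of 5 Old and 3 Young AllPrep or 5 Old and 5 Young RNeasy livers. Cd163 lies at 1.23 to 3.32 in Old and 16.1 to 22.3 in Young AllPrep livers, while Clec4f overlaps between the ages in both kits.

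Clec4f, a C-type lectin that in mouse liver marks Kupffer cells, hardly differed with age. In AllPrep libraries it had 69.7, 53.8, 105.0, 70.6 and 67.8 scaled TPM in Old replicates 5, 7, 8, 9 and 18, against 77.0, 72.3 and 57.3 in Young replicates 1, 10 and 13. In RNeasy libraries it had 50.2, 53.7, 57.3, 63.9 and 42.7 in Old replicates 6, 14, 15, 16 and 17, against 50.9, 74.8, 58.7, 44.3 and 50.4 in Young replicates 2, 3, 4, 11 and 12. The ages overlapped in both kits, and 5 of 10 Old livers were above the Young median. The log2 fold was 0.00 ± 0.12 (SE; 95% interval -0.26 to 0.26; limma adjusted p = 0.998), so differences of either sign within that interval remain possible. Clec4f, the marker that best checks the label of this gene group, was thus present in every library.

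Set against Clec4f in the same liver, Cd163 lay outside the range of Young livers in AllPrep. The ratio of Cd163 to Clec4f TPM, which no scaling between libraries alters, was 0.0193 to 0.0477 in Old and 0.220 to 0.309 in Young AllPrep livers. In RNeasy livers it was 0.0111 to 0.274 (median 0.159) in Old and 0.175 to 0.263 (median 0.228) in Young. The ratio of Adgre1 to Clec4f was 0.395 to 0.526 in Old and 0.233 to 0.299 in Young AllPrep livers, without overlap, and 0.255 to 0.565 in Old and 0.198 to 0.256 in Young RNeasy livers. That of Cd68 was 0.411 to 0.545 in Old and 0.245 to 0.348 in Young AllPrep livers, also without overlap, and 0.254 to 0.668 and 0.229 to 0.306 in Old and Young RNeasy livers. That of Timd4 was 0.0678 to 0.123 in Old and 0.124 to 0.160 in Young AllPrep livers, just without overlap, and 0.0760 to 0.160 in Old and 0.110 to 0.154 in Young RNeasy livers. In AllPrep livers, then, the Old ratios lay above the Young ones for Adgre1 and Cd68, as for 3.21% of all genes tested, and below them for Cd163 and Timd4, as for 2.03%. In RNeasy livers none of the 9 ratios separated the ages (0.453% of genes tested lay above and 0.216% below). These ratios were chosen as a description and were not tested.

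**Figure D2:**
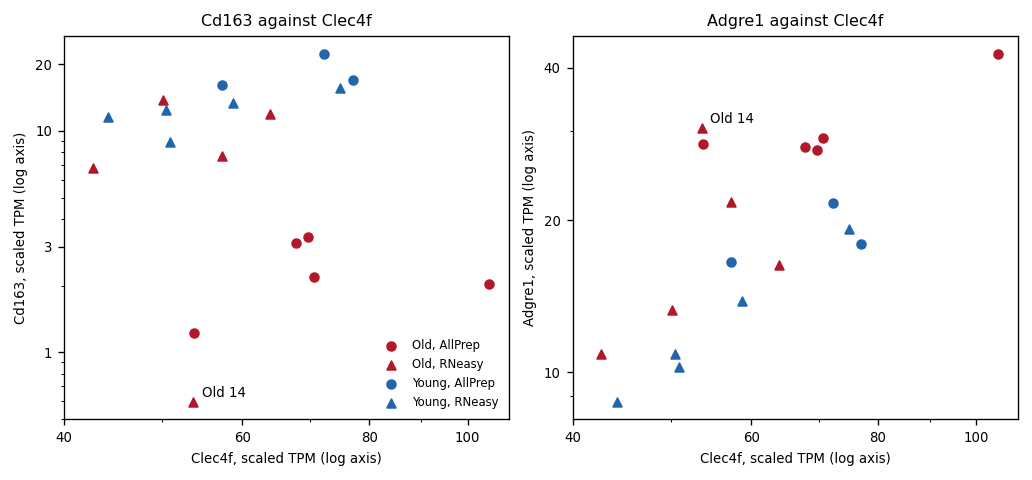
Cd163 (left) and Adgre1 (right) against Clec4f in scaled TPM on log axes, 1 point per liver, Old in red and Young in blue, circles for AllPrep and triangles for RNeasy. At Clec4f levels of 53.8 to 105.0 the 5 Old AllPrep livers hold 1.23 to 3.32 Cd163, and Old replicate 14 holds 0.596.

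Across the 10 genes, 0 were higher and 1 was lower in Old livers with both kits, where 2.11% and 2.35% of the 13895 genes tested were called higher and lower. An unadjusted p under 0.05 was reached by 4 of the 10 (Cd163, Adgre1, Cd68 and Timd4) and by 3244 of the 13895 genes tested. The fit with limma-voom on recovered reads also called 0 higher and 1 lower. When Old replicate 14 was left out the count was again 0 higher and 1 lower (3.38% and 3.31% of genes tested). The log2 fold was positive for 7 of the 10, with a median of 0.19 against -0.01 for all genes tested. Within AllPrep 0 were higher and 1 lower (0.698% and 0.417% of genes tested), and within RNeasy 0 and 0 (0.0504% and 0.0864%). Within RNeasy an unadjusted p under 0.05 was reached by 0 of 10 and by 1308 of the 13895 genes tested. The median log2 fold of the 10 within RNeasy was 0.10, and -0.0021 without Old replicate 14. Groups without overlap were found in AllPrep for 2 genes above (Adgre1 and Cd68; 6.05% of genes tested) and 2 below (Cd163 and Timd4; 7.15%). In RNeasy no member had groups without overlap in either direction, where 1.19% of the genes tested did so above and 1.63% below, nor did one with both kits (0.187% and 0.209%).

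Adgre1, which encodes the F4/80 surface antigen of mouse macrophages, came nearest to a call among the genes with higher values. In AllPrep libraries it had 27.6, 28.3, 42.6, 29.1 and 27.9 scaled TPM in Old replicates 5, 7, 8, 9 and 18, against 17.9, 21.6 and 16.5 in Young replicates 1, 10 and 13. In RNeasy libraries it had 13.3, 30.3, 21.7, 16.3 and 10.9 in Old replicates 6, 14, 15, 16 and 17, against 10.3, 19.2, 13.8, 8.75 and 10.9 in Young replicates 2, 3, 4, 11 and 12. Old livers lay above the Young median of their own kit in 5 of 5 cases in each kit. Old replicate 17 did so barely, at 10.90 against a Young RNeasy median of 10.87. Over both kits 8 of 10 Old livers were above the median of all Young livers. The log2 fold was 0.59 ± 0.18 (SE, limma adjusted p = 0.0647) with both kits, 0.69 in AllPrep (0.0775) and 0.51 in RNeasy (0.641). Without Old replicate 14 it was 0.49 with both kits (limma adjusted p = 0.0745) and 0.29 in RNeasy (0.691). It was called with 3 of 18 libraries left out (Old 6, Old 17 and Young 3), with a lowest adjusted p of 0.0275.

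Cd68, a lysosomal glycoprotein of phagocytes, had 33.5, 29.3, 43.5, 30.3 and 27.8 scaled TPM in Old replicates 5, 7, 8, 9 and 18, against 18.9, 24.1 and 20.0 in Young replicates 1, 10 and 13. In RNeasy libraries it had 14.0, 35.8, 22.6, 16.2 and 11.6 in Old replicates 6, 14, 15, 16 and 17, against 12.6, 21.0, 13.7, 10.1 and 15.5 in Young replicates 2, 3, 4, 11 and 12. AllPrep Old livers were all above the Young ones, while in RNeasy Old replicate 14 was highest and Old replicate 17 was below the Young median. With both kits its difference came to 0.48 ± 0.18 on the log2 scale (SE, limma adjusted p = 0.125), and 0.62 and 0.38 within AllPrep and RNeasy (0.0939 and 0.726). Without Old replicate 14 it was 0.36 with both kits (limma adjusted p = 0.157) and 0.13 within RNeasy (0.881).

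Timd4, a phosphatidylserine receptor that binds dying cells, had 8.01, 5.39, 7.11, 6.58 and 8.31 scaled TPM in Old replicates 5, 7, 8, 9 and 18, against 9.58, 11.6 and 8.80 in Young replicates 1, 10 and 13. In RNeasy libraries it had 5.20, 4.08, 9.19, 7.65 and 4.0 in Old replicates 6, 14, 15, 16 and 17, against 7.84, 9.95, 7.84, 4.85 and 5.96 in Young replicates 2, 3, 4, 11 and 12. Over both kits 9 of 10 Old livers were below the Young median. The log2 fold was -0.37 ± 0.16 (SE, limma adjusted p = 0.173), with -0.48 in AllPrep (0.155) and -0.29 in RNeasy (0.745), and it did not pass in either kit. Without Old replicate 14 it was -0.19 in RNeasy (limma adjusted p = 0.83).

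Marco, a class A scavenger receptor that binds bacteria, was the most uneven of the 10 genes. It had 18.7, 3.10, 5.99, 6.06 and 23.6 scaled TPM in Old replicates 5, 7, 8, 9 and 18, against 7.53, 34.5 and 18.5 in Young replicates 1, 10 and 13. In RNeasy libraries it had 15.4, 3.92, 50.1, 21.4 and 5.14 in Old replicates 6, 14, 15, 16 and 17, against 8.47, 16.8, 14.4, 12.4 and 21.0 in Young replicates 2, 3, 4, 11 and 12. Livers of either age were found at both ends of the range. Over both kits its coefficient of variation was 94.2% in Old and 51.3% in Young livers, next to 87.5% and 27.8% for Cd163 and 27.1% and 20.5% for Clec4f. Within kits Cd163 was less uneven. In Old AllPrep livers this coefficient was 78.9% for Marco and 36.0% for Cd163. In Old RNeasy livers it was 97.6% and 62.8%, or 83.6% and 33.3% without Old replicate 14. The log2 fold of -0.45 ± 0.47 (SE, limma adjusted p = 0.598) had an interval of -1.44 to 0.54, and it was -0.91 within AllPrep (0.481) and -0.11 within RNeasy (0.963). Without Old replicate 14 it was 0.28 within RNeasy (limma adjusted p = 0.89).

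With both kits, the other 4 genes had positive log2 folds that did not pass. Vsig4, the complement receptor CRIg, averaged 79.8 ± 19.5 scaled TPM in Old (SD, n = 5) and 65.1 ± 16.5 in Young AllPrep livers (SD, n = 3), and 44.7 ± 8.65 in Old and 39.4 ± 12.1 in Young RNeasy livers (SD, n = 5 each). The difference with both kits was 0.24 ± 0.15 on the log2 scale (SE, limma adjusted p = 0.344). Cd5l, a secreted scavenger receptor protein of macrophages, averaged 200.8 ± 53.8 in Old and 166.7 ± 35.0 in Young AllPrep livers, and 130.5 ± 56.6 in Old and 102.9 ± 32.2 in Young RNeasy livers (0.27 ± 0.20, limma adjusted p = 0.436). C1qa, the A chain of complement C1q, averaged 98.1 ± 19.3 in Old and 80.7 ± 8.39 in Young AllPrep livers, and 68.4 ± 25.8 in Old and 60.9 ± 15.6 in Young RNeasy livers (0.18 ± 0.17, 0.544). Csf1r, the receptor for the macrophage growth factors CSF1 and IL-34, averaged 71.8 ± 20.5 in Old and 54.4 ± 11.1 in Young AllPrep livers, and 41.5 ± 12.6 in Old and 39.0 ± 12.0 in Young RNeasy livers (0.21 ± 0.17, 0.487). The ages overlapped in both kits for each of these 4 genes. Their log2 folds were 0.28 (Vsig4), 0.24 (Cd5l), 0.26 (C1qa) and 0.37 (Csf1r) within AllPrep, at limma adjusted p of 0.362 to 0.590, and 0.21, 0.29, 0.12 and 0.09 in the same order within RNeasy, at 0.773 to 0.925. Without Old replicate 14 the RNeasy folds were 0.11, 0.06, -0.07 and -0.07 in that order, at limma adjusted p of 0.88 to 0.96.

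**Figure D3:**
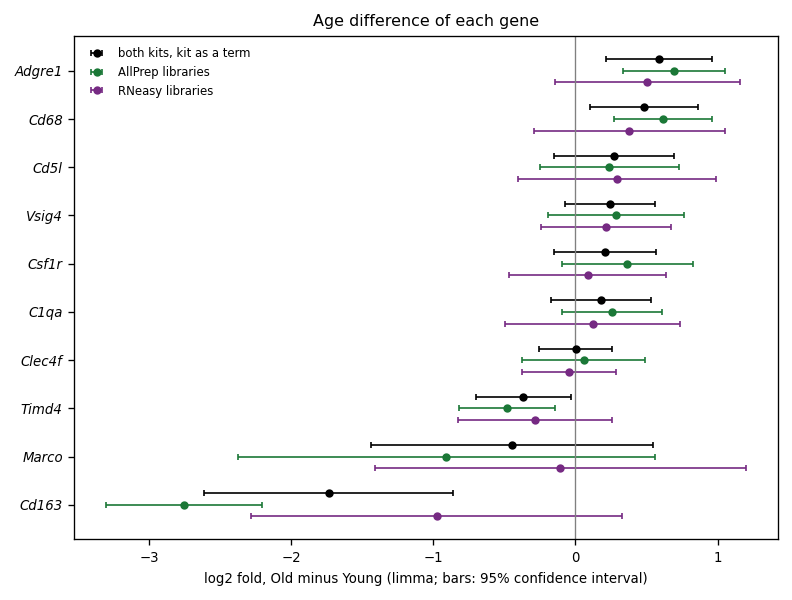
log2 fold of Old minus Young for each gene (horizontal axis) with its 95% confidence interval, from limma with both kits (black), AllPrep libraries (green) and RNeasy libraries (purple). Cd163 stands at -1.73, -2.75 and -0.98 in these 3 fits, and Adgre1 at 0.59, 0.69 and 0.51.

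By level per gene length, Cd5l was the highest of the 10 in both ages, with a median of 158.9 scaled TPM in Old and 126.5 in Young livers, followed by C1qa at 84.1 in Old and 65.5 in Young. Clec4f, Csf1r and Vsig4 came next, at 60.6, 60.1 and 59.8 in Old livers and at 58.0, 44.9 and 45.3 in Young livers, with ranges that overlapped widely. Cd68 (28.6 in Old, 17.2 in Young) and Adgre1 (27.7 in Old, 15.2 in Young) followed, and their ranges overlapped too. Marco had 10.8 in Old and 15.6 in Young livers. Over both kits Timd4 was next to last in Old livers (6.85) and last in Young livers (8.32), whereas Cd163 was last in Old livers (3.23) and stood above Timd4 in Young livers (14.5). Within kits, the median of Cd163 was below that of Timd4 in Old AllPrep livers (2.19 against 7.11). In Old RNeasy livers it was above that of Timd4 (7.69 against 5.20). Neighbours in this order overlapped in range over the livers of an age, with the exception of Csf1r (29.0 to 67.2) and Cd68 (10.1 to 24.1) in Young livers. These ranges do not show the order within a liver, which was not tested. Cd5l, for example, lay above C1qa in each liver although their ranges overlapped.

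Levels of these genes were also compared between the kits within an age. In Young livers, the log2 difference of AllPrep minus RNeasy was positive for 10 of 10 genes, at 0.30 (Marco) to 0.77 (Vsig4) on the log2 scale, with a median of 0.56 against 0.09 for all genes tested. None of the 10 passed in limma (7.14% of genes tested were higher and 5.88% lower). An unadjusted p under 0.05 was reached by 8 of the 10 and by 4444 of the 13895 genes tested. Cd163 was nearest to a call at 0.60 ± 0.17 (SE, limma adjusted p = 0.0502). In Old livers 8 of 10 differences were positive, and Vsig4 passed at 0.83 ± 0.18 (SE, limma adjusted p = 0.0291; 0.864% of genes tested were higher and 3.49% lower). Leaving out Old replicate 14, 6 genes were higher in Old AllPrep livers, namely Vsig4, Cd5l, Adgre1, C1qa, Cd68 and Csf1r at 0.77 to 1.04, and Cd163 was lower at -1.86 ± 0.26 (SE, limma adjusted p = 0.00753), where 5.47% and 7.23% of genes tested were higher and lower. With all Old livers Cd163 stood at -1.22 ± 0.60 (SE, limma adjusted p = 0.253). The positive differences in Young livers were not particular to the 10 genes. They were found for 14 of 14 hepatocyte markers (median 0.49, 4 called higher) and 12 of 12 sinusoidal endothelial markers (0.41, 6 called higher). Medians were negative for markers of cholangiocytes (-0.16), dendritic cells (-0.19), B and plasma cells (-0.12) and T and NK cells (-0.08). These fits within an age were added after the data had been seen.

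The kits did not hold like mice among the Old. Clamp body weight was 47.3 ± 5.53 g in Old AllPrep mice and 38.8 ± 4.28 g in Old RNeasy mice (SD, n = 5 each; two-sided exact permutation p = 0.0238). In Young mice it was 31.1 ± 4.17 g (n = 3) and 29.6 ± 2.50 g (n = 5) in AllPrep and RNeasy (SD, exact permutation p = 0.571). Suppression of glucose production by insulin was 43.5% ± 16.2 and 42.7% ± 15.8 in Old AllPrep and RNeasy mice (SD, n = 5 each; exact permutation p = 0.944), and 85.1% ± 3.73 and 78.2% ± 8.68 in Young AllPrep and RNeasy mice (SD, n = 3 and 5; exact permutation p = 0.250). The slope of each gene on body weight, with age and kit as terms, passed for 0 of 10 genes (0.0432% of genes tested had a positive and 0.0216% a negative slope that passed). For Cd163 it was -0.063 ± 0.049 per g on the log2 scale (SE, limma adjusted p = 0.568), and -0.086 ± 0.034 without Old replicate 14 (limma adjusted p = 0.162; 0 of 10 passed, against 0.87% of genes tested with a positive and 0.515% with a negative slope). The slope on suppression of glucose production passed for 0 of 10 genes and for 0% of genes tested. An unadjusted p under 0.05 was reached by 0 of 10 and by 1259 of the 13895 genes tested. When Old replicate 14 was left out this slope again passed for 0 of 10. Then 1 of 10 had an unadjusted p under 0.05 (Marco, 0.045 ± 0.017 per percentage point, SE, limma adjusted p = 0.760), as did 872 of the 13797 genes tested. Which of the kit and the body weight goes with the low Cd163 of Old AllPrep livers cannot be told apart.

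Within age and kit, 8 of the 10 genes, all but Marco and Cd163, went up and down together from liver to liver. With all 18 livers Timd4 did so loosely. Pearson correlations of log2 levels centred on the mean of each age and kit group were 0.27 to 0.96 for the 28 pairs of these 8 genes (median 0.77, n = 18 livers). Timd4 stood at 0.27 (Cd68) to 0.63 (Clec4f) with the others of the 8, below its 0.72 with Marco. Marco followed the 8 genes little, at 0.03 to 0.72 over 8 pairs (median 0.10), with Timd4 the most like it. Cd163 had correlations of -0.54 (Cd68) to 0.64 (Marco) over 9 pairs, with a median of -0.27. In the 17 livers other than Old replicate 14 the 28 pairs stood at 0.60 to 0.96 (median 0.85), Marco at 0.21 to 0.67 (median 0.42) and Cd163 at 0.21 to 0.62 (median 0.37), so the negative sign for Cd163 rests on that library. So does the looser fit of Timd4, which in the 17 livers stood at 0.60 (Vsig4) to 0.84 (C1qa) with the others of the 8. Its correlation with Marco was then 0.67. The points share libraries and their depth, and these values are a description.

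**Figure D4:**
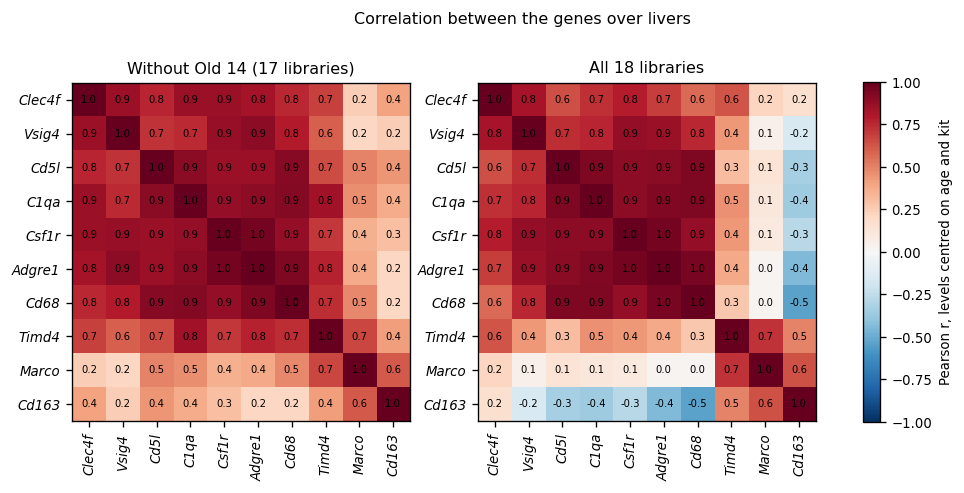
Pearson correlations between the 10 genes over livers, from log2 levels centred on each age and kit group, without Old replicate 14 (left, 17 libraries) and with all 18 libraries (right). Colours run from -1 in blue to 1 in red. Cd163 runs from 0.21 to 0.62 without Old replicate 14 and from -0.54 to 0.64 with it.

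Among all genes tested, those most like Clec4f by the same measure were Folr2, a folate receptor of resident macrophages (r = 0.91), Adrb1, an adrenergic receptor (0.88), Ncf1, a subunit of the phagocyte oxidase (0.88), Lilra5, a leukocyte receptor (0.86) and Scimp, an adaptor of antigen-presenting cells (0.84), over 18 livers. Over 17 livers, without Old replicate 14, they were Fcgr4 (0.92), Pilra (0.92), Ncf1 (0.92), Lilra5 (0.92) and Folr2 (0.91). Most like Cd163 were Aqp9, a glycerol channel (0.95), Glyctk, glycerate kinase (0.93), Oat, ornithine aminotransferase (0.92), Nr1h4, the bile acid receptor (0.92) and Ash2l, a subunit of histone methyltransferases (0.92). Over the 17 livers none of these 5 was among the 5 most like Cd163, which were Snora74a (0.78), Zfp707 (0.78), Abhd14a (0.76), Snord17 (0.76) and Snord94 (0.76).

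Other genes of Kupffer cells and of what they do were counted in the fit with both kits, where 2.11% of genes tested were higher and 2.35% lower. Of 28 further Kupffer cell and macrophage genes, 0 were higher and 0 lower, 25 had a positive log2 fold and the median was 0.27. Nearest were C6, a terminal complement component (-0.92 ± 0.27, limma adjusted p = 0.0636, and -0.65 with an adjusted p of 0.0132 without Old replicate 14), Vcam1, an adhesion molecule (0.65, 0.0653), and Lyz2, lysozyme (0.60, 0.0918). Within AllPrep these 3 stood at -1.03, 0.83 and 0.81 (limma adjusted p 0.067, 0.163 and 0.125), and within RNeasy at -0.84, 0.50 and 0.44 (0.586, 0.601 and 0.690). Of 15 transcription factors, 1 was higher. This was Tcf4, a basic helix-loop-helix factor, which averaged 1.87 ± 0.20 in Old and 1.45 ± 0.11 in Young livers (0.28 ± 0.06, limma adjusted p = 0.0205), and was not called with hepatocyte marker scaling (limma adjusted p = 0.132). It did not pass within AllPrep (0.29, limma adjusted p = 0.229), within RNeasy (0.27, 0.407) or with body weight as a term.

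Of 15 genes of the Kupffer cell niche (ligands of NOTCH, BMP, TGF beta and CSF1R with their receptors and targets), 0 were higher and 0 lower, with Dll4, a NOTCH ligand, at 0.44 (limma adjusted p = 0.0609), Hes1, a NOTCH target, at 0.68 (0.0638), and Hey1, another, at 0.46 (0.0825). Dll4 passed without Old replicate 14, at 0.33 (limma adjusted p = 0.0345). Dll4, Hes1 and Hey1 were at 0.27, 0.78 and 0.69 within AllPrep (limma adjusted p 0.249, 0.0938 and 0.0952) and at 0.56, 0.61 and 0.28 within RNeasy (0.466, 0.621 and 0.721). Of 12 genes of CSF1R signalling 0 were higher and 0 lower, with 12 positive log2 folds and a median of 0.20. Of 17 tested genes for the engulfment of dying cells 0 were higher and 0 lower (median 0.15). Of 8 tested complement receptors 0 were higher and 0 lower (median 0.37). Itgax, an integrin chain, passed within AllPrep at 1.48 (limma adjusted p = 0.0276; 0.698% of genes tested were higher) and stood at 0.47 within RNeasy (0.752). Its level was low, with means of 2.31 scaled TPM in Old and 0.438 in Young AllPrep livers. Itgax is also a member of the list of macrophages that take up lipid, given below.

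For the next 2 lists too, the shares over all genes tested were 2.11% higher and 2.35% lower. Scavenger receptors included Cd163, which was the lower one of 15 tested, and 1 was higher. This was Cd36, a receptor for fatty acids and oxidized lipoproteins, at 116.6 ± 43.2 scaled TPM in Old (SD, n = 10) and 66.7 ± 18.1 in Young livers (SD, n = 8; 0.67 ± 0.18, limma adjusted p = 0.0433), a call kept with 5 of 18 libraries left out in turn (Old 5, 6, 16 and 17 and Young 4) and lost without any other, at a highest limma adjusted p of 0.106. Cd36 did not pass within AllPrep (0.89, limma adjusted p = 0.0848) or RNeasy (0.49, 0.602), with no kit term (0.0771), with no scaling (0.051) or with hepatocyte marker scaling (0.078). Of 17 genes of haemoglobin and iron recycling, Cd163 was again the lower one and Nfe2l2, the NRF2 regulator of antioxidant genes, the higher one. Nfe2l2 averaged 56.1 ± 8.04 in Old and 38.2 ± 6.15 in Young livers (0.54 ± 0.10, limma adjusted p = 0.00602), was called with each of the 18 libraries left out in turn, and passed within RNeasy at 0.57 (0.0486) but not within AllPrep at 0.49 (0.192). With body weight as a term neither Cd36 (limma adjusted p = 0.808) nor Nfe2l2 (0.394) passed. Cd163 is a member of both lists.

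Of 13 markers of macrophages that take up lipid, 4 were higher and 0 lower with both kits, 5 and 0 within AllPrep and 0 and 0 within RNeasy, where 2.11%, 0.698% and 0.0504% of all genes tested were higher. The 5 within AllPrep include Itgax, already given with the complement receptors. The summed level of the 13 markers overlapped between the ages, at 960.6 to 1339 scaled TPM in Old and 936.4 to 1026 in Young AllPrep livers and at 652.0 to 2062 in Old and 689.8 to 829.4 in Young RNeasy livers. Gpnmb, a membrane glycoprotein, was 5.72 to 14.1 scaled TPM in Old and 0.114 to 0.207 in Young AllPrep livers, and 0.452 to 20.3 in Old and 0.246 to 2.28 in Young RNeasy livers, with Old replicate 14 the highest. Mmp12, a macrophage elastase, was 2.55 to 5.23 in Old and 0.130 to 0.310 in Young AllPrep livers, and 0.464 to 10.8 in Old and 0.219 to 1.40 in Young RNeasy livers, again highest in Old replicate 14. Trem2, a lipid receptor, was 2.02 to 4.44 in Old and 0.409 to 0.929 in Young AllPrep livers, and overlapped at 0.998 to 6.70 in Old and 0.420 to 1.71 in Young RNeasy livers, highest in Old replicate 14. Ms4a7, a membrane protein of macrophages, was 1.29 to 2.52 in Old and 0.414 to 0.456 in Young AllPrep livers, and overlapped at 0.564 to 3.38 in Old and 0.534 to 0.780 in Young RNeasy livers, also highest in Old replicate 14. Each of these 4 genes lay above without overlap in Old AllPrep livers, as did 6.05% of genes tested. Ms4a7 was not called without Young replicate 1 (limma adjusted p = 0.0545) or 10 (0.0547), nor Gpnmb with limma-voom (0.0548), nor any of the 4 with body weight as a term. Their part in the Cd163 result was not tested. Of 9 tested markers of blood monocytes, 0 were higher and 0 lower with both kits, 9 log2 folds were positive, and Cx3cr1, the fractalkine receptor, passed within AllPrep at 1.53 (limma adjusted p = 0.0297) and stood at 0.22 within RNeasy (0.794).

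Markers of other liver cells were summed beside these values. They were also counted with both kits, where 2.11% of genes tested were higher and 2.35% lower. Hepatocyte markers had 0 of 14 tested higher and 0 lower, and their sum was 149500 to 186300 scaled TPM in Old and 157600 to 187800 in Young AllPrep livers, and 133300 to 179900 in Old and 121700 to 137300 in Young RNeasy livers. Sinusoidal endothelial markers had 0 of 12 higher and 0 lower, with sums of 281.2 to 362.1 in Old and 364.6 to 401.7 in Young AllPrep livers, which just did not overlap. Of single genes tested, 7.15% lay below without overlap in AllPrep. In RNeasy livers the endothelial sums overlapped, at 258.6 to 355.6 in Old and 249.4 to 348.6 in Young. The summed level of the 10 Kupffer cell genes was 503.2 to 832.3 in Old and 455.1 to 629.1 in Young AllPrep livers, and 243.4 to 569.0 in Old and 266.8 to 512.2 in Young RNeasy livers. The count was 0 higher and 0 lower for markers of stellate cells (12 tested), cholangiocytes (5), neutrophils (4), T and NK cells (7), dendritic cells (3) and red blood cells (7). Of 8 B and plasma cell markers 1 was higher (Jchain, the joining chain of antibodies, 1.43, limma adjusted p = 0.0208, or 0.0513 without Young replicate 10; 1.53 and 0.0278 within AllPrep, 1.34 and 0.493 within RNeasy), with sums of 11.3 to 32.6 in Old and 6.54 to 9.66 in Young AllPrep livers and 9.94 to 36.9 in Old and 7.89 to 11.7 in Young RNeasy livers. No listed marker was at 0 in every library of a group, and the part of these cells in the results was not tested.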

How the data were processed

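The deposited values are TPM, which per the labels' protocols came from rRNA-depleted liver RNA extracted with either of 2 kits. STAR 2.7.9a, Subread and featureCounts and the builds GRCm39 and mm10 are named per the submitters' processing notes, with no roles given; the sources used here do not state gene lengths or the strand setting, and overlapping and antisense genes stay uncertain. Each library sums to 1000000 TPM over 18946 genes. Whole reads were recovered from ratios of TPM for 18946 genes (100% of values whole within 0.0001), 85790735 to 127487820 per library; they served for depth and as an alternative with limma-voom, since TPM is not a count. Count tests had been planned in case the table held counts.

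Libraries were brought to a common scale by trimmed means of log ratios between them (trims of 30% for ratios and 5% for levels). The 13895 genes that reached 0.5 TPM in 8 or more libraries were tested with limma 3.58.1 (R 4.3.3) on log2(scaled TPM + 0.5) with a variance trend, with age and kit as terms, and within each kit. Folds are on that scale, which makes changes of weakly expressed genes look smaller. A gene was called where its p-value, adjusted by Benjamini-Hochberg over all genes tested, was under 0.05; intervals are 95%. The script was tested on simulated data. Exact permutation tests were two-sided (scipy 1.17.1).

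Groups, kits and traits came from the labels. Each library is a separate mouse. The 10 genes and the lists were chosen with earlier results of these data known. Named genes were the 10, the genes called in a list or the 3 with the smallest p, and the 5 most like Cd163 and Clec4f. For the lists of other liver cells, mostly counts are printed. The result of 1 listed gene is not reported here. Alternatives covered the kit term, scaling, filter, pseudocount, array weights, body weight, voom and each library left out; tests between kits within an age and versions of correlations and lists without Old replicate 14 were added after seeing the data. Python 3.11.15, numpy 2.4.6, pandas 2.3.3 and matplotlib 3.10.9 were used.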

Additional observations from a re-analysis of the deposited data

Results flagged for a closer look

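Among the 10 genes, 3 values stood apart from the other Old livers in Dixon's test of the gap to the nearest value over the whole range, which chance passes in about 1 in 20 groups. Clec4f had 105.0 and Csf1r 108.3 scaled TPM in Old replicate 8, both in 1 library, and Marco had 50.1 in Old replicate 15. Without Old replicate 8 the log2 fold of Clec4f with both kits was -0.06 (limma adjusted p = 0.798).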

How the results depend on the processing

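No paired analysis was possible because no replicate number is shared between Old and Young mice. Over 11 alternative settings the log2 fold of Cd163 stayed between -1.99 and -0.97 (limma adjusted p 0.0147 to 0.576), and leaving out each library gave -1.94 to -1.44, called in 15 of 18 fits. The number of the 10 genes called lower was 0 with body weight as a term and 0 in RNeasy libraries alone, and 0 to 1 with a library left out; the number called higher was 0 to 1 (Adgre1). Without Old replicate 14 the difference of the age effect between kits was called lower for 1 gene, and AllPrep against RNeasy in Old livers gave 6 higher and 1 lower; the cause was not tested. The sign of Clec4f, near 0, changed with median-of-ratios scaling (-0.0017), hepatocyte marker scaling (-0.12), array weights (-0.023), voom (-0.028) and RNeasy libraries alone (-0.045), and ran from -0.057 to 0.064 with a library left out, from -0.082 to 0.16 in AllPrep and from -0.13 to 0.066 in RNeasy. Csf1r was -0.039 with body weight as a term. Within RNeasy, leaving out a library gave -0.58 to 0.28 for Marco, -0.073 to 0.33 for C1qa and -0.073 to 0.25 for Csf1r. With Old replicate 14 left out, these 3 stood at 0.28, -0.073 and -0.073, and Clec4f at -0.065. Without Old replicate 14 the age effect of Cd5l in AllPrep minus that in RNeasy was 0.18, and slopes on suppression of glucose production were 0.0076 for Cd163, -0.00052 for Vsig4 and -0.0033 for Csf1r. Of the values of single genes, 486 kept direction and side of the threshold, 29 changed sign, 10 came to pass and 5 no longer passed. Counts over all genes moved with the setting: 293 higher and 326 lower here, 341 and 188 with no scaling, 145 and 1042 with hepatocyte marker scaling (median of all genes -0.12), 689 and 691 with array weights, 242 and 431 with voom and 3 and 0 with body weight. The depth of 161 to 26750 reads per gene does not limit these genes by counting.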
